A study of Mus musculus with 3 samples.

Results

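A set of 10 hematopoietic genes was followed in blood granulocytic myeloid-derived suppressor cells (G-MDSCs) of mice with and without a melanoma. They were 9 cytokine and growth factor receptor genes, Kit, Flt3, Csf1r, Csf2ra, Csf2rb, Csf2rb2, Il3ra, Il4ra and Il2rg, and 1 cytokine gene, Osm. The 10 genes were chosen by symbol from the 26655 Ensembl genes in the files, with their levels and ratios in these same libraries already known. Their values are therefore a description of these libraries, and each symbol matched 1 gene.

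RNA-seq gave 1 library each for normal mice, for mice 2 weeks after B16F10 tumor implantation (2Ws) and for mice 3 weeks after it (3Ws), 3 in all. B16F10 is a transplantable melanoma line of C57BL/6 origin, implanted under the skin of C57BL/6J mice 8 to 10 weeks old, and normal mice of that strain carried no tumor. The labels describe the cells as CD11b+Gr1+ from peripheral blood, and the methods separated G-MDSCs by a Ly6G antibody on magnetic columns. One label field gives the tumor times in months where the descriptions and title give weeks, and the number of mice behind a library is not given in the sources used here. No genetic change or drug was applied to any of the 3 groups.

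These genes encode the parts by which blood cells sense growth factors. Most cytokine receptors are pairs of chains, in which a private chain gives specificity for 1 ligand and a shared chain carries the Janus kinase signal to STAT proteins. Csf2ra and Il3ra are private alpha chains for GM-CSF and IL-3, and Csf2rb is the beta common chain that GM-CSF, IL-3 and IL-5 receptors share. Mice carry a further beta chain gene, Csf2rb2, whose product serves IL-3 alone. Kit, Flt3 and Csf1r are instead receptor tyrosine kinases, for stem cell factor, FLT3 ligand and CSF-1, and are known for progenitors and mast cells, for progenitors and dendritic cells, and for monocytes and macrophages. Il4ra binds IL-4 and IL-13 and pairs with Il2rg, the gamma common chain, or with Il13ra1. Osm is a cytokine of the IL-6 family that myeloid cells secrete and that signals through gp130.

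The beta chain genes lie beside each other on chromosome 15 and are near copies, which matters for reading their values apart. In GRCm38 with GENCODE M21, Csf2rb occupies chr15:78325752-78353847 on the plus strand and Csf2rb2 chr15:78282507-78305721 on the minus strand. Their coding sequences have 2688 and 2634 bases, and 2503 of 2628 aligned bases (95.2%) are identical. A stretch of 120 coding bases in exon 5 of each is shown, from chr15:78340480-78340599 (plus strand) for Csf2rb and chr15:78292710-78292829 (minus strand) for Csf2rb2, with the 6 bases that differ in capitals and all others shared.
Csf2rb: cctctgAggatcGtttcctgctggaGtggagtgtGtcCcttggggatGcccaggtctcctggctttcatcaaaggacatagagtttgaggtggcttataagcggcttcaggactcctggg
Csf2rb2: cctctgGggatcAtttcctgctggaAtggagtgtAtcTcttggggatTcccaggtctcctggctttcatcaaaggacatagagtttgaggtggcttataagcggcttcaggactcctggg
The differences fall in the first part of the stretch, and the rest of it is the same run in both genes. Of all 50-base windows in the annotated transcripts, 12.3% of those of Csf2rb and 18.4% of those of Csf2rb2 also occur in the other gene. A read that lies within such a window cannot be assigned to either gene, and how the authors treated such reads is not given in the sources used here. The sum of the pair is therefore given beside each gene.

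Promoters of the receptor genes that were at least 2-fold higher at 3Ws are shown because these genes were higher together and their start regions can be compared. The RefSeq table (GRCm38.p6) gave 8 promoters of 7 of the 10 genes, each of 250 bases before and 50 after the start, and none was used for Osm, Csf2rb or Csf1r. Capitals in the Csf2rb2 line mark a match to TTCNNNGAA, the spacing that STAT proteins such as STAT5 bind, which begins 15 bases before the start. The windows are chr5:75574737-75575036 (plus strand) for Kit, chr7:125552021-125552320 (plus strand) for Il4ra and chr15:78305672-78305971 (minus strand) for Csf2rb2. Kit had 2 of the 8 promoters, and only that with the lower start position is shown.
Kit promoter: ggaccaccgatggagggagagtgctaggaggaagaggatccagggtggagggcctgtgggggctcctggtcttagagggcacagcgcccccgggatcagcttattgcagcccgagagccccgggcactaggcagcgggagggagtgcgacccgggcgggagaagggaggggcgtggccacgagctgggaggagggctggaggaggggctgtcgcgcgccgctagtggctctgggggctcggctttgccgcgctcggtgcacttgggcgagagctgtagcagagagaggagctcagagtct
Il4ra promoter: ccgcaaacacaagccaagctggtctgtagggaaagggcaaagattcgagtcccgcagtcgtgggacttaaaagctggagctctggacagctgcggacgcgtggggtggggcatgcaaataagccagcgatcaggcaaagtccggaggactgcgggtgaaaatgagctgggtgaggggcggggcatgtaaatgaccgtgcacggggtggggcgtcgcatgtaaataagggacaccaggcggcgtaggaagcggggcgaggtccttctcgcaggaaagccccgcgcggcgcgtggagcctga
Csf2rb2 promoter: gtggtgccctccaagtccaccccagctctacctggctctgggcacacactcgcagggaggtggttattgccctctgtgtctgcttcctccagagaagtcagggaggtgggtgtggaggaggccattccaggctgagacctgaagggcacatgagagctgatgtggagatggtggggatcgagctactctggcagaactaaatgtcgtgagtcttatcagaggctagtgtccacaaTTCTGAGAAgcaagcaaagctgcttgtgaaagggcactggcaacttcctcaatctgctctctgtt
The Kit and Il4ra windows are rich in G and C (69% and 62%) with 20 and 25 CpG pairs, and the Csf2rb2 window has 55% and 3. Over all 32851 promoters the medians were 52.7% and 7. TTCNNNGAA, which is its own reverse complement, occurred in 8.30% of all promoters and in 1 of the 8 of these genes. TTCNNNNGAA, the wider spacing known for STAT6 and also its own reverse complement, occurred in 6.95% of all promoters and in none of the 8. A match is a string in the window and not a measured binding site.

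Values are FPKM, fragments scaled to gene length and to library depth, so levels of different genes can be set side by side. Reads per gene were recovered from FPKM and gene length, which gave library depths of 16549246 to 17325747 reads. Intervals are 95% intervals of these reads, exact Poisson for a level and exact Clopper-Pearson for a ratio, and cover counting error only. With 1 library per condition there is no replicate, no test between conditions and no p-value, and a difference may belong to the library. The G-MDSC label fitted the data in part. Neutrophil genes were abundant in all 3 libraries, with Csf3r at 3271 to 3479 FPKM and Ly6g at 114 to 190, and B cell and monocyte markers were also present. Xist, expressed from the inactive X chromosome of females, was at 24.7 FPKM at 2Ws and at most 0.00966 in the others, while the Y-linked Ddx3y was at 0 at 2Ws and at 19.9 FPKM in the normal and 23.1 in the 3Ws library. The methods name female mice for implantation, which goes against the 3Ws library. Sex and condition cannot be told apart at 2Ws, so 3Ws is given against each of the other libraries, and only 3Ws against normal compares libraries alike in these genes.

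Genes with at least 1 FPKM in either library of a comparison were called higher or lower if FPKM + 1 differed by 2-fold or more. By this rule 4 of the 10 genes, Kit, Il4ra, Osm and Csf2rb2, were higher at 3Ws than in normal mice, against 2.60% of 11103 genes compared. Il3ra and Il2rg, 2 of the 10, were lower, against 7.89% of genes. Neither was when ratios were centred on the median of genes expressed in both libraries (log2 ratios of −0.97 and −0.89), beside 553 of 11103 genes. At 2Ws none of the 9 compared with normal mice was higher, against 1.29% of 11269 genes, and none was lower, against 1.22%. Kit was under 1 FPKM in both of these libraries and was not compared at 2Ws. Against 2Ws, Kit and Il4ra were higher at 3Ws (2 of 10, against 2.00% of 11119 genes), and none was lower (against 7.37%). The shares of all genes stand for scale only, since the 10 genes were taken with these ratios in view. The comparisons with normal mice use the same normal library. Fold values in the text are ratios of FPKM with nothing added.

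**Figure D1:**
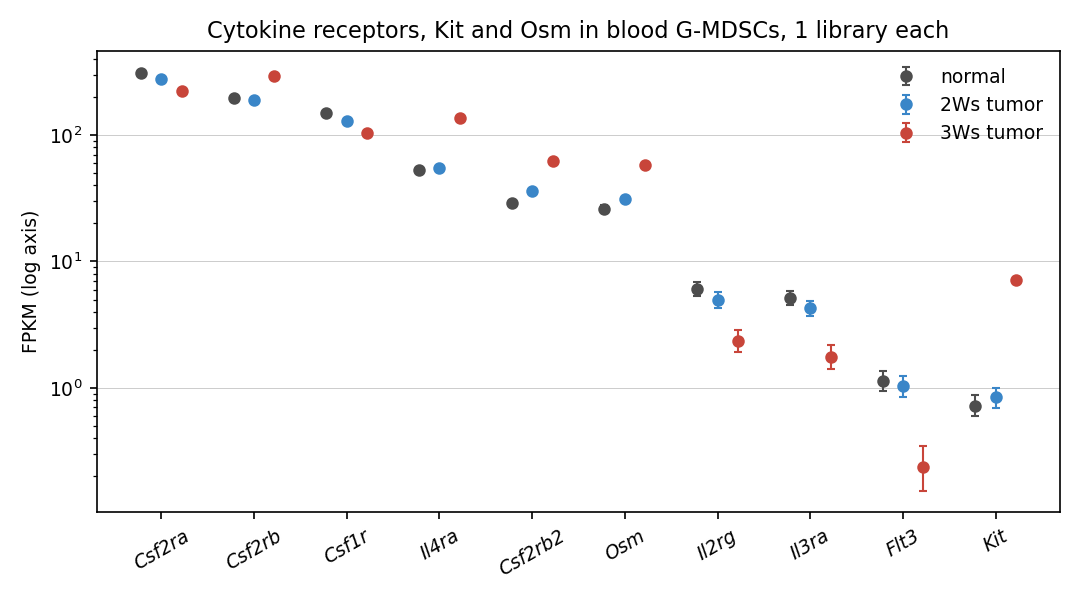
FPKM (log axis) of the 10 genes in the normal (grey), 2Ws (blue) and 3Ws (red) libraries, 1 library each, with bars for the 95% exact Poisson interval of the reads. Kit sits below 1 FPKM in the normal and 2Ws libraries and at 7.08 at 3Ws, while Il3ra, Flt3 and Il2rg sit lowest at 3Ws.

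Levels of the 10 genes in normal mice ran from 312 FPKM for Csf2ra to 0.725 for Kit, in the order Csf2ra, Csf2rb, Csf1r, Il4ra, Csf2rb2, Osm, Il2rg, Il3ra, Flt3 and Kit. The order at 2Ws was the same. At 3Ws it was Csf2rb, Csf2ra, Il4ra, Csf1r, Csf2rb2, Osm, Kit, Il2rg, Il3ra and Flt3, so Kit moved from the last place to the seventh. Neighbours whose intervals overlapped were Il2rg and Il3ra in every library, Csf2rb2 and Osm in the normal and 3Ws libraries, and Flt3 and Kit at 2Ws. The median log2 ratio of FPKM + 1 over the 10 genes was −0.07 for 2Ws over normal, 0.04 for 3Ws over normal and 0.16 for 3Ws over 2Ws. Over all genes compared it was 0.00, −0.24 and −0.21, a general shift to lower values at 3Ws beside which each ratio stands. When ratios at 3Ws were centred on the median of genes expressed in both libraries, the share of higher genes among all those counted went from 24.8% to 42.9% against normal mice and from 21.3% to 35.2% against 2Ws.

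**Figure D2:**
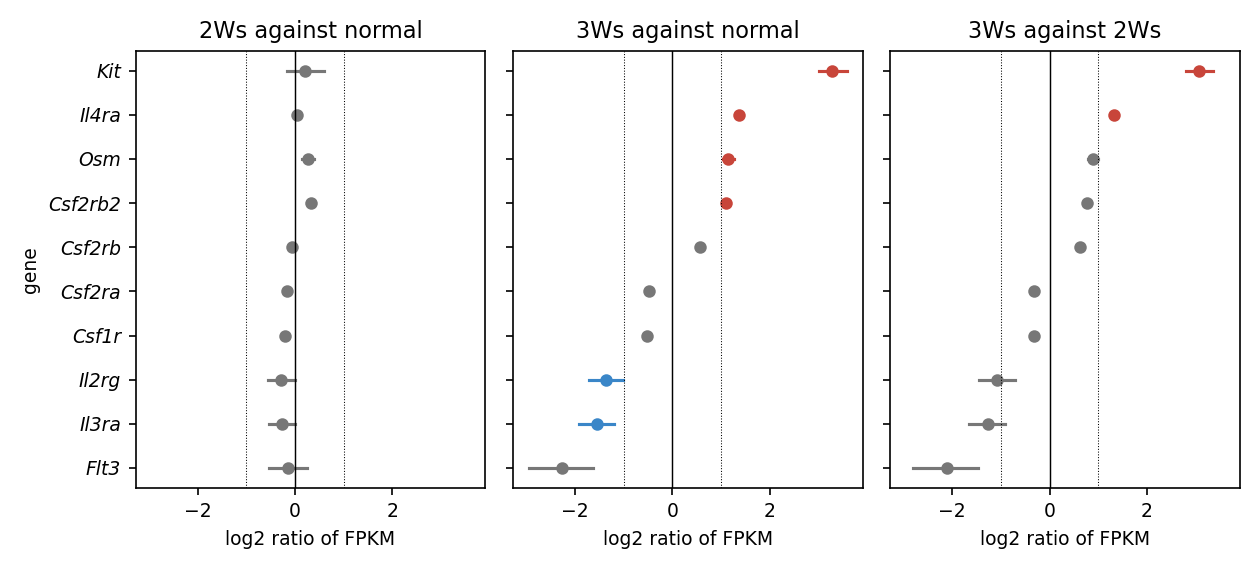
Log2 ratio of FPKM for each gene in the 3 comparisons, with the 95% Clopper-Pearson interval of the reads as a bar. Red and blue mark genes at least 2-fold higher or lower on the FPKM + 1 scale, grey marks all others, and dotted lines mark 2-fold on the plotted scale. Flt3 lies beyond the dotted line at 3Ws but is grey, since adding 1 shrinks its ratio.

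GM-CSF receptor chains were among the most abundant of the 10 genes, and at 3Ws their alpha and beta chains differed from normal mice in opposite directions, short of the rule. Csf2ra, the GM-CSF alpha chain at chr19:61223957-61228429 (minus strand), had 312 FPKM in the normal library, 278 in that of 2Ws and 224 in that of 3Ws, and later trios of values keep this order. It was lowest at 3Ws, 1.39-fold below normal mice (1.36 to 1.42), and 1.12-fold below them at 2Ws (1.10 to 1.15). Its reads are approximate, at about 15501, 13198 and 10993, because 2 gene lengths gave whole numbers and none could be preferred. Csf2rb, the beta common chain, had 197, 188 and 291 FPKM from 16248, 14813 and 23664 reads. At 2Ws it was 1.05-fold below normal mice (1.02 to 1.07), a direction that turned when values were taken relative to Actb. The 3Ws library stood above both, 1.48-fold over normal mice (1.45 to 1.51) and 1.55-fold over 2Ws (1.52 to 1.58). Csf2rb had 0.632, 0.676 and 1.30 times the FPKM of Csf2ra, so the beta chain passed the alpha chain in 1 library of 3.

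Csf2rb2, the beta chain for IL-3, had 28.8, 36.1 and 61.9 FPKM from 2299, 2752 and 4877 reads. The 3 libraries were in the order normal, 2Ws, 3Ws, with intervals that did not overlap. At 3Ws the level was 2.15-fold that of normal mice (2.05 to 2.26) and 1.72-fold that of 2Ws (1.64 to 1.80), and at 2Ws it was 1.25-fold that of normal mice (1.19 to 1.33). The near-identical pair summed to 226, 224 and 353 FPKM. The sum at 3Ws was 1.56-fold that of normal mice (1.53 to 1.59), and at 2Ws it was 0.993-fold (0.971 to 1.01). Csf2rb2 made up 12.8%, 16.1% and 17.6% of the sum. Shared reads make the split between the pair uncertain, and so the call of Csf2rb2. The sum was short of the rule at 3Ws (log2 ratio of 0.64), but Csf2rb makes up most of it, so the sum cannot check that call. The sum too depends on whether shared reads were dropped or counted for both genes, which is not given.

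Il3ra, the IL-3 alpha chain at chr14:14346275-14356011 (plus strand), was low throughout and lowest at 3Ws. Its levels were 5.13, 4.25 and 1.76 FPKM, or about 264, 209 and 89 reads, which are approximate since 3 gene lengths gave whole numbers. The level at 3Ws was 2.91-fold below normal mice (2.29 to 3.76) and 2.41-fold below 2Ws (1.88 to 3.14). At 2Ws it was 1.21-fold below normal mice, with an interval from 1.00 to 1.45. Csf2ra had 60.7, 65.4 and 127 times the FPKM of Il3ra in the 3 libraries. Il5ra, the IL-5 alpha chain and the only other gene of this group above 1 FPKM, had 2.52, 4.95 and 0.590 FPKM and was 4.27-fold lower at 3Ws than in normal mice. By the rule, Csf2rb2 was higher at 3Ws than in normal mice and Il3ra and Il5ra were lower, while Csf2rb and Csf2ra were not called.

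Markers of cells that are known for these chains were read beside them. Eosinophils are known for Il5ra, and 7 of 10 eosinophil markers reached 1 FPKM, with a summed level of 50.9, 70.4 and 32.6 FPKM, led by Siglecf and Ear2 (here and below, the genes that lead a list have its highest mean FPKM over the 3 libraries, which need not be the order in each). At 3Ws 3 of 6 compared were lower than in normal mice, Ear1, Ear2 and Il5ra, which is itself on this list. At 2Ws 2 of 7 compared were higher than in normal mice, Ccr3 and Ear1. Basophils and mast cells are known for Il3ra, and their list summed to 186, 162 and 262 FPKM. Hdc, the histidine decarboxylase gene that neutrophils also express, held 174, 154 and 260 FPKM of this, and Cma1, next by mean level, 1.56, 1.07 and 0.60. Of the 14 genes on that list Tpsab1 was at 0 in every library, 7 were compared at 3Ws and 1, Ms4a2, was lower (2.30, 0.601 and 0.125 FPKM). The median log2 ratio of FPKM + 1 of the 7 was −0.92, and adding 1 dampens genes near 1 FPKM. By FPKM alone Fcer1a, Prss34, Mcpt8 and Cpa3 were 18.7-fold, 6.65-fold, 6.24-fold and 4.65-fold lower, from few reads, and Hdc was 1.49-fold higher. Whether such cells account for Il3ra was not tested. In RNA from a mixed sample, fewer cells of a type and less RNA per cell cannot be told apart.

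**Figure D3:**
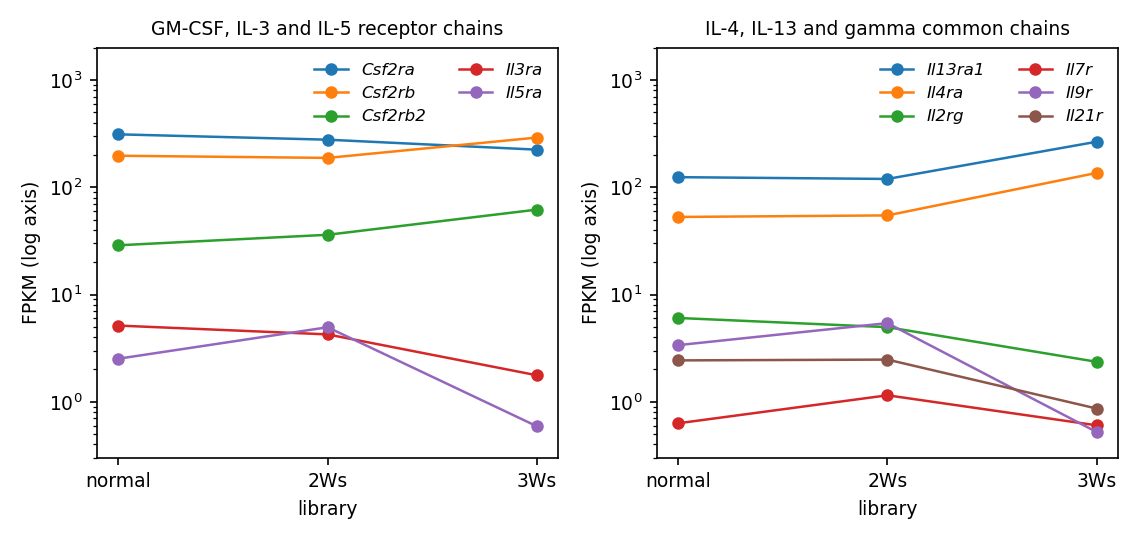
FPKM (log axis) in the 3 libraries, 1 point per library, of the GM-CSF, IL-3 and IL-5 receptor chains (left) and of the IL-4, IL-13 and gamma common receptor chains (right). Csf2rb passes Csf2ra at 3Ws, where Il4ra reaches 136 FPKM and Il2rg 2.36.

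Kit, at chr5:75574916-75656722 (plus strand), showed the highest ratio of the 10 genes. Its level was 0.725 FPKM in normal mice (0.597 to 0.873), 0.841 at 2Ws (0.699 to 1.00) and 7.08 at 3Ws (6.67 to 7.52), from 112, 124 and 1078 reads over 8911 exon bases. The normal and 2Ws libraries overlapped within counting error, with a ratio of 1.16 (0.890 to 1.51), and the 3Ws library stood apart from both. At 3Ws it was 9.77-fold above normal mice (8.03 to 12) and 8.43-fold above 2Ws (6.99 to 10.2), and 99.8% of all genes compared had a lower ratio to normal mice. Even so its level at 3Ws was moderate, with 54.2% of the genes above 1 FPKM in that library below it. No 50-base window of its transcripts occurs in another annotated gene.

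Flt3, at chr5:147330741-147400489 (minus strand), went the other way at very low levels. It had 1.14, 1.03 and 0.237 FPKM from 122, 105 and 25 reads. The level at 3Ws was 4.81-fold below normal mice (3.11 to 7.72) and 4.33-fold below 2Ws (2.78 to 7.0), while 2Ws and normal mice overlapped (1.11-fold lower, 0.848 to 1.45). On the FPKM + 1 scale the log2 ratio at 3Ws was −0.79, short of the 2-fold rule, because adding 1 dampens genes near 1 FPKM. Kit had 0.636, 0.818 and 29.9 times the FPKM of Flt3 in the 3 libraries, so the order of these progenitor receptors changed at 3Ws.

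Csf1r, the CSF-1 receptor, had 149, 130 and 104 FPKM from 12601, 10498 and 8665 reads. Its levels were in the order normal, 2Ws, 3Ws from high to low, 1.43-fold below normal mice at 3Ws (1.39 to 1.47) and 1.15-fold below at 2Ws (1.12 to 1.18), and the rule was not met. Hmgxb3, a gene on the opposite strand whose transcripts share 14.3% of the windows of Csf1r, had 2.13, 2.25 and 1.23 FPKM. Csf1r had 205, 154 and 14.7 times the FPKM of Kit. Of the ligands of these kinases, Csf1 had 72.5, 46.7 and 67.6 FPKM and Flt3l 3.20, 3.19 and 1.60, and neither was counted in any comparison. Kitl, which encodes stem cell factor, had 0.264, 0.112 and 0.0396 FPKM, under 1 FPKM in every library.

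Lists of cells known for Kit, Flt3 and Csf1r gave the following levels, with the 10 genes left out. Progenitor markers summed to 66.8, 67.5 and 29.9 FPKM, led by Ly6a and Cd63, and 4 of 15 could be compared at 3Ws, of which Ly6a and Elane were lower and none was higher. The progenitor sum was 2.24-fold lower at 3Ws than in normal mice while Kit was higher. Most of that sum was Ly6a (36.8, 42.3 and 10.8 FPKM) and Cd63 (18.1, 15.2 and 13.6). Meis1, Myb, Hlf and Cd34 (0.238, 0.166 and 0.193) were under 1 FPKM in every library, so the sum says little about progenitors. Of 9 melanoma genes, tumor cells being another known source of Kit, 4 were in the files, with Sox10 at 0 and sums of 5.23, 5.49 and 5.22 FPKM. Mitf, also expressed outside melanocytes, had 3.89, 3.96 and 2.52 FPKM, Pmel, a melanosome gene, 1.33, 1.53 and 2.66, and Tyrp1, a pigment enzyme gene, 0, 0 and 0.0414, so the flat sum joins genes of different direction. Neutrophil immaturity genes, led by Ngp and Lcn2, summed to 4850, 2974 and 3557 FPKM, and at 3Ws 1 of 15, Lcn2, was higher and 7 were lower. The part of progenitors, mast cells, tumor cells or immature neutrophils in the value of Kit was not tested.

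Dendritic cell markers, led by Itgax and Ly6d, summed to 135, 131 and 48.9 FPKM, 2.75-fold lower at 3Ws than in normal mice, with 6 of 11 lower and none higher. Flt3 moved the same way, as did Il3ra. The 6 lower genes were Cd209a, Irf8, Ccr7, Cd209d, Clec10a and Ly6d. At 2Ws Ly6d was 1.38-fold above normal mice and at 3Ws 7.2-fold below. The B cell marker sum given below moved likewise, 1.29-fold above and 4.31-fold below. Clec9a was 1.19-fold below normal mice at 3Ws, and Zbtb46 and Xcr1 were under 1 FPKM in every library. The part of B cells in the dendritic cell sum was not tested. Monocyte and macrophage markers, led by Fcgr4 and C1qb, summed to 1004, 826 and 511 FPKM, 1.96-fold lower at 3Ws, with 13 of 18 lower and none higher. Csf1r and Csf2ra were also lower, by 1.43-fold and 1.39-fold. The part of dendritic cells, monocytes and macrophages in the values of Flt3, Il3ra, Csf1r and Csf2ra was not tested.

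**Figure D4:**
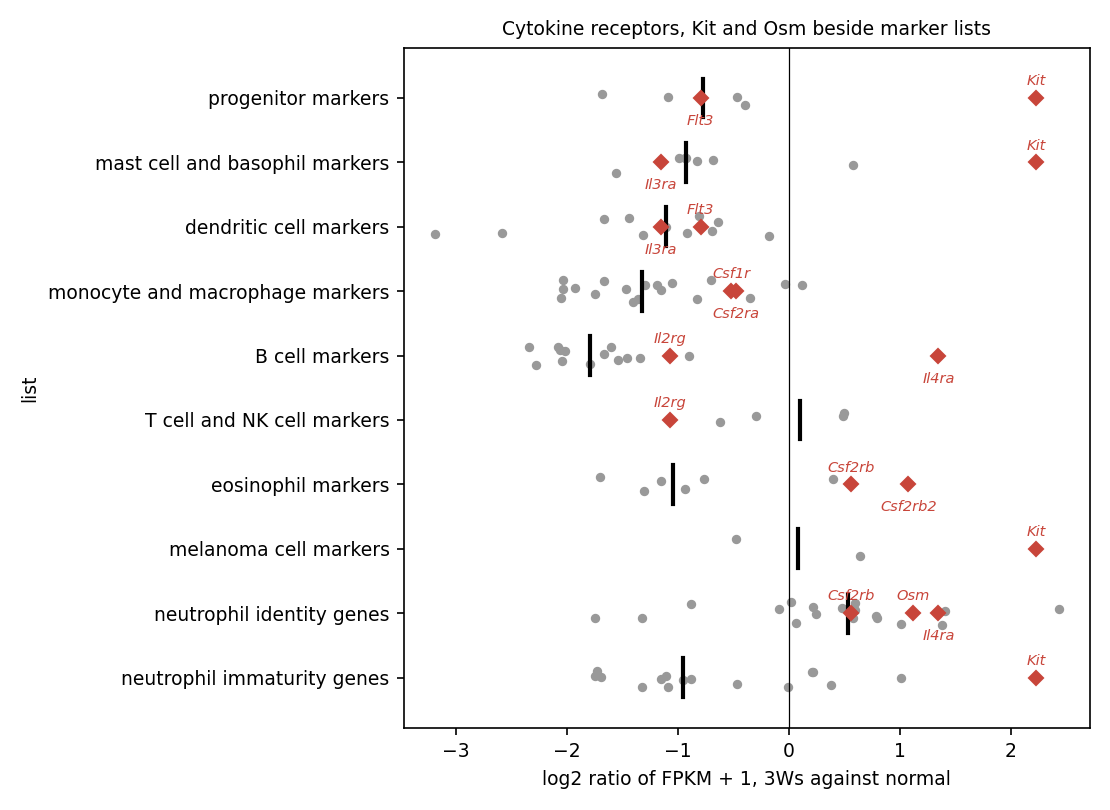
Log2 ratio of FPKM + 1 at 3Ws against normal mice for the genes of each marker list (grey points), their median (black bar) and cytokine receptor genes and Osm (red diamonds) beside lists of cells known for them. Kit lies to the right of 0 beside lists whose medians are near or below 0, while Flt3, Il3ra and Il2rg lie to the left of it.

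Il4ra, at chr7:125552120-125579474 (plus strand), was the most abundant of the genes that met the rule. It had 52.9, 54.7 and 136 FPKM from 5499, 5430 and 13967 reads. Normal mice and 2Ws did not differ beyond counting error, at 1.03-fold (0.996 to 1.07), and 3Ws stood above both, by 2.58-fold over normal mice (2.5 to 2.66) and 2.49-fold over 2Ws (2.42 to 2.57). It lay above 91.1% of the genes over 1 FPKM in normal mice and above 96.7% at 3Ws. An antisense gene, Gm44876, shares 8.44% of its windows and had 0.603, 0.271 and 0.350 FPKM.

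Its partner chains went in opposite directions. Il2rg, the gamma common chain at chrX:101264378-101268255 (minus strand), had 6.04, 4.96 and 2.36 FPKM from 250, 196 and 96 reads. It was lowest at 3Ws, 2.57-fold below normal mice (2.02 to 3.28) and 2.11-fold below 2Ws (1.64 to 2.72), and 1.22-fold below normal mice at 2Ws (1.01 to 1.48). Gm20489, an M21 gene on the same strand that has no value in the files, shares 27.5% of the windows of Il2rg. Whether such reads were counted for Il2rg is not known. Il13ra1, the chain that joins Il4ra in the IL-13 receptor, had 124, 120 and 266 FPKM and was 2.14-fold higher at 3Ws than in normal mice. Il4ra thus had 8.75, 11 and 57.9 times the FPKM of Il2rg, and 0.426, 0.457 and 0.512 times that of Il13ra1. Both ratios were highest at 3Ws, and the Il4ra to Il13ra1 ratio differed far less between libraries than the Il4ra to Il2rg ratio.

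The other private chains of gamma common receptors were at 5.41 FPKM or below, apart from Il15ra, a chain of the IL-15 receptor, at 7.31, 6.37 and 11. Il9r, for IL-9, had 3.37, 5.41 and 0.521 FPKM and was the only one of them that met the rule at 3Ws, 6.47-fold lower than in normal mice. Il15, the ligand of Il15ra, was the second most abundant gene of this list at 58.0, 50.1 and 59.1 FPKM. With Il4ra and Il2rg left out, 13 of 15 genes of the list were in the files, and at 3Ws against normal mice 1 of 6 compared was higher (Il13ra1) and 1 lower (Il9r).

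Lymphocytes are known for Il2rg and, among them, B cells also for Il4ra. B cell markers, led by Ighm and Cd79a, summed to 549, 706 and 127 FPKM, and 12 of 13 compared at 3Ws were lower than in normal mice. Il2rg did not follow them at 2Ws, where the sum was 1.29-fold above normal mice and Il2rg 1.22-fold below. Il4ra was higher at 3Ws, where the B cell sum was 4.31-fold lower. T and NK cell markers, led by Gzma and Klrd1, summed to 16.1, 19.4 and 17.4 FPKM, with none of 4 compared counted at 3Ws. Neutrophil identity genes, led by S100a9 and S100a8, summed to 47974, 52242 and 72329 FPKM, and at 3Ws 4 of 18 were higher (Mmp8, Retnlg, Lcn2 and Il1r2) and 2 lower (Ltf and Camp). The part of lymphocytes in the value of Il2rg was not tested.

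Osm, at chr11:4236420-4241026 (plus strand), had 26.2, 31.3 and 58.1 FPKM from 1030, 1178 and 2255 reads. The libraries were in the order normal, 2Ws, 3Ws, with intervals that did not overlap. At 3Ws it was 2.22-fold above normal mice (2.06 to 2.39) and 1.86-fold above 2Ws (1.73 to 1.99), and at 2Ws 1.2-fold above normal mice (1.10 to 1.30). The level passed that of 82.9% of the genes over 1 FPKM in normal mice and of 91.4% at 3Ws. None of its 50-base windows occurs in another gene.

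Receptors that could answer oncostatin M were far lower than the ligand. Osmr, its receptor in mice, had 0.0143, 0 and 0.00483 FPKM, under 1 FPKM in every library. Il6st, which encodes gp130, had 3.77, 3.89 and 0.997 FPKM and was 3.78-fold lower at 3Ws than in normal mice. Lifr, another receptor gene of the gp130 group, had 3.77, 4.98 and 2.43 FPKM and was not counted in any comparison. Il27ra, the IL-27 receptor chain that pairs with gp130, had 2.56, 3.46 and 0.486 FPKM and was 5.27-fold lower. Il6ra, the IL-6 receptor, led the list at 51.8, 52.3 and 62.3 FPKM and was not counted, and Il27 came next at 7.97, 7.28 and 6.37. Of 13 genes of the gp130 group besides Osm, 7 were compared at 3Ws, of which none was higher and Il6st and Il27ra were lower.

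Other genes of the receptor pathways were taken from 9 lists that together held 121 genes besides the 10, of which 117 were in the files and 89 reached 1 FPKM in a library. At 3Ws against normal mice 5 of 86 compared were higher and 13 lower, with a median log2 ratio of −0.12 beside −0.24 for all genes. At 2Ws none of 88 was higher and Arg1, Mrc1 and Retnla were lower. At 3Ws against 2Ws 6 of 89 were higher and 11 lower. Among 14 other hematopoietic receptors, Csf3r, the G-CSF receptor, was the highest at 3479, 3362 and 3271 FPKM, above each of the 10 genes, and Il18rap, a chain of the IL-18 receptor, was the only one of 8 compared that met the rule at 3Ws, at 99.1, 116 and 202 FPKM.

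Genes of signalling proteins next to the receptors did not meet the rule. None of 25 kinases, STATs and adaptors compared was counted in any of the 3 comparisons, with a median log2 ratio of −0.08 at 3Ws against normal mice. Lyn, a Src family kinase of myeloid cells, had 171, 179 and 237 FPKM. In the list of negative feedback genes 1 of 18 was higher at 3Ws, Socs3, an inhibitor of gp130 and G-CSF receptor signalling with 166, 136 and 338 FPKM. Sh2b2, an adaptor that binds Janus kinases, was the 1 lower gene, at 4.09, 2.69 and 1.31. Dusp1, a phosphatase of MAP kinases, and Ptprc, which encodes CD45, had the highest mean levels over the libraries (687, 679 and 753 FPKM, and 253, 272 and 278).

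Genes known as STAT5 targets and as IL-4 or STAT6 targets differed in their counts at 3Ws. Of 10 STAT5 targets compared besides Osm, 3 were higher than in normal mice, Socs3, Bcl2l1, which encodes the survival protein BCL-XL (6.43, 6.01 and 19.5 FPKM), and Id1, an inhibitor of helix-loop-helix factors (17.3, 19.1 and 47.1). Myc, which drives cell growth, was the 1 lower gene (6.61, 7.05 and 1.51), and Mcl1, a survival gene, led the list at 1008, 1043 and 1276 FPKM. Cish, Socs2 and Il2ra, also on this list, were under 1 FPKM in every library and were not compared. Of 11 IL-4 and STAT6 targets compared besides Il4ra, none was higher and 7 were lower, with a median log2 ratio of −1.35. Retnla, an alternative activation marker, had 110, 42.9 and 16.5 FPKM, and Alox15, a lipoxygenase, 183, 235 and 53.8. Mgl2, Ccl24, Fcer2a, Klf4 and Mrc1 were also lower, by 14.1-fold, 7.34-fold, 4.39-fold, 3.27-fold and 3.44-fold. Klf4 and Mrc1 also stand on the monocyte and macrophage list, whose sum was lower. The B cell sum was 4.31-fold lower, near the ratio of Fcer2a. Ccl24 (6.64, 9.01 and 0.904 FPKM) and Alox15 were highest at 2Ws and lowest at 3Ws, as was the eosinophil sum. The part of monocytes, macrophages, B cells, eosinophils or other cells in this count was not tested. Chil3, a chitinase-like gene, had 339, 183 and 444 FPKM, and Arg1, which encodes arginase 1, 9.12, 3.47 and 13.2, both higher at 3Ws than at 2Ws by the rule and not counted against normal mice.

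**Figure D5:**
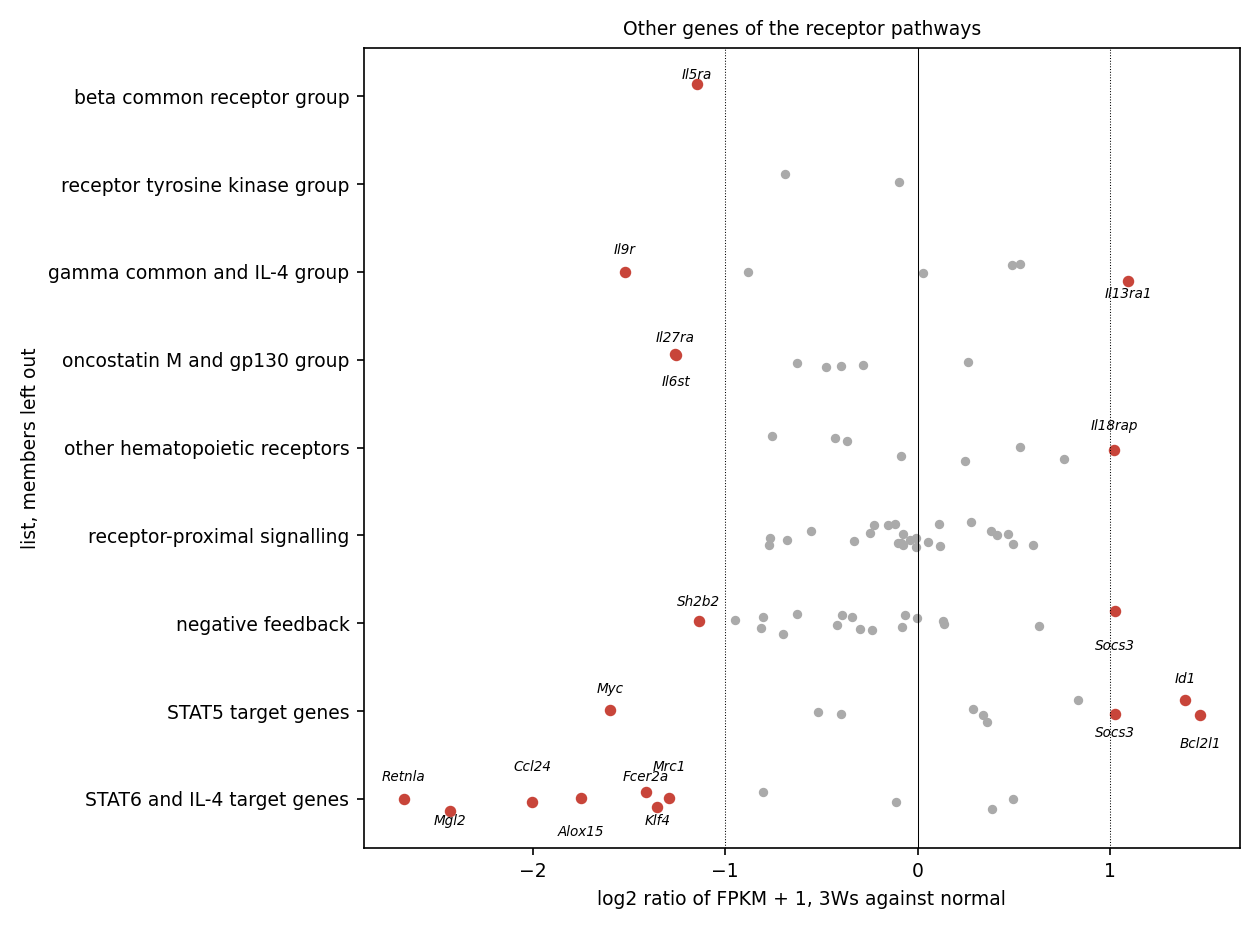
Log2 ratio of FPKM + 1 at 3Ws against normal mice for genes of 9 receptor pathway lists, 1 point per gene, the 10 described genes left out. Named red points are at least 2-fold higher or lower (dotted lines), the points of Il27ra and Il6st coincide, and no gene of receptor-proximal signalling passes either line.

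Genes with the pattern most like each of the 10 were found among 5665 protein-coding genes with at least 5 FPKM in a library, by the distance between pairs of log2 ratios of FPKM + 1 (2Ws and 3Ws, each against normal mice). With 3 libraries this measure rests on only those pairs of values. For Kit they were Ambp (distance 0.18), Adamtsl4 (0.18) and Fkbp5 (0.22), and no other gene lay within 0.25. Fkbp5, a chaperone gene known to respond to glucocorticoids, had 8.01, 9.71 and 45.9 FPKM. Within the same distance lay 28 genes for Il4ra, led by Klhdc4, Mmp8 and Acod1, and 48 each for Osm, led by Gk, Sipa1l1 and Klf7, and for Csf2rb2, led by Sycp2, Dmxl2 and Gk. Mmp8, a neutrophil collagenase, had 484, 501 and 1264 FPKM. Csf2rb was nearest to Tlr2, Narf and Dach1 with 245 genes within that distance.

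Il3ra was nearest to Nupr1, Coq2 and Tufm (168 genes within 0.25), and Il2rg to Psap, H2-Q4 and Mfsd5 (221). Csf1r was nearest to Tmem219, Ganab and Psma3 (1054) and Csf2ra to Slc35a4, Trabd and Casp8 (1207). Flt3 was nearest to Psma7, Syne3 and Ramp1 (521), but only on the FPKM + 1 scale, where its log2 ratio at 3Ws was −0.79 and not the −2.27 of its FPKM. Adding 1 also dampened the log2 ratio at 3Ws of Kit (2.23 and not 3.29), Il3ra (−1.15 and not −1.54) and Il2rg (−1.07 and not −1.36). Their nearest genes likewise hold for the FPKM + 1 scale. On that scale ratios like those of Csf1r and Csf2ra were common among the genes searched, and a ratio like that of Kit was found in few.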

How the data were processed

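RNA from blood G-MDSCs of normal, 2Ws and 3Ws mice was sequenced, 1 library each. The authors aligned reads to GRCm38 with HISAT2 2.1.0 and an index from Bowtie2 2.2.3, and deposited FPKM per Ensembl gene. How reads were counted, with which annotation and strand setting, is not stated in the methods or labels. Reads of overlapping antisense genes can therefore not be told apart. Libraries were matched to groups by their sample descriptions. The normal sample is titled N1 and its value column N2, and it is the only normal sample.

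Genes were named through GENCODE M21 (26588 of 26655). Each FPKM was multiplied by exon length and by the total of its library to recover reads, and 20743 of 23318 genes above 0 (89.0%) gave whole numbers within 0.001 in all libraries. Totals were 17325747, 16549246 and 17075753 reads. Of the 10 genes 5 were whole at the M21 length, Csf2rb, Csf2rb2 and Csf1r at 1 other length between 50% and 130% of it (4764, 4612 and 4885 bases, within 0.005), and 2 only approximately. Ratios used FPKM + 1 for counts of genes, with a minimum of 1 FPKM in 1 library and 2-fold.

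The 10 genes and all lists were chosen with earlier results of these data known. Named were the 10 genes, list genes at least 2-fold different, the 2 highest per list (1 is not reported here), marker genes at 0, the 3 genes nearest to each of the 10, and Actb, Xist and Ddx3y. Chosen after their values were seen were Kitl, Osmr, Lifr, Il15ra, Cish, Socs2, Il2ra, Ly6g, Tyrp1, overlapping genes and marker genes named beside small counts. Alternatives were other pseudocounts, minimums, folds and scalings. Scripts ran in Python 3.11.15 (scipy 1.17.1, pandas 2.3.3, numpy 2.4.6; figures by matplotlib 3.10.9) and were tested on simulated data. No RefSeq protein table was used. No test between conditions was run.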

Additional observations from a re-analysis of the deposited data

Results flagged for a closer look

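Csf2rb, the beta common chain, lay on opposite sides of normal mice at the 2 tumor times, each time by more than counting error. Its ratio to normal mice was 0.954 at 2Ws (0.933 to 0.976) and 1.48 at 3Ws (1.45 to 1.51). With 1 library per condition, the difference between these ratios was not tested. Relative to Actb the log2 ratio at 2Ws was 0.03 and not −0.07, and that at 3Ws was 0.65, so the direction at 2Ws turned with this scaling. Summed with its near copy Csf2rb2, the log2 ratio of FPKM + 1 at 2Ws was −0.01.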

How the results depend on the processing

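The direction of every ratio of the 10 genes held in each of the 11 alternatives that gave it, except Csf2rb at 2Ws relative to Actb (0.03 on the log2 scale). The alternative that summed Csf2rb and Csf2rb2 gave the sum in place of Csf2rb and no value for Csf2rb2. Over these alternatives 42 values of single genes moved by more than counting error and 285 did not. In this paragraph higher and lower give numbers of genes counted, for the 10 genes, for the other pathway genes or for all genes compared. With a pseudocount of 0.1, 3 of the 10 were lower at 3Ws against 2Ws (Il3ra, Flt3 and Il2rg), beside 1763 of all 11119 genes compared. Of the other pathway genes 2 were higher at 2Ws and 19 lower at 3Ws against 2Ws. With 0.5, 2 of the 10 were lower at 3Ws against 2Ws, beside 1249 of all 11119 genes. Recovered reads without a pseudocount gave 3 of the 10 lower in that comparison, beside 1880 of all 11119 genes. Of the other pathway genes they gave 2 higher at 2Ws and 21 lower at 3Ws against 2Ws. Centred on the median ratio, 0 of the 10 were lower at 3Ws against normal mice, Il3ra reaching −0.97 and Il2rg −0.89. Of all 11103 genes 553 were lower by this setting. It also counted Osm higher at 3Ws against 2Ws, giving 3 of the 10 beside 301 of all 11119 genes. At 3Ws against normal mice Flt3 joined Il3ra and Il2rg, giving 3 of the 10 lower, in further settings. These were pseudocounts of 0.1 and 0.5, the 1.5-fold rule and reads without a pseudocount, beside 1943, 1371, 2622 and 2034 of all 11103 genes. A minimum of 5 FPKM left 7 others lower at 3Ws against normal mice and 5 against 2Ws. At 1.5-fold, 5 of the 10 were higher (Kit, Il4ra, Osm, Csf2rb and Csf2rb2) and 3 lower at 3Ws against 2Ws. All 11119 genes compared gave 565 higher and 2307 lower. The other pathway genes gave 2 higher and 6 lower at 2Ws, 9 and 25 at 3Ws against normal mice, and 13 and 25 against 2Ws. At 4-fold, 1 of the 10, Kit, was higher at 3Ws in both comparisons and 0 were lower. Over all genes 39 of 11103 were higher and 66 lower against normal mice, and 28 of 11119 higher and 92 lower against 2Ws. The other pathway genes gave 0 lower at 2Ws, and 0 higher and 3 lower at 3Ws in both comparisons. Depth limits Flt3 most, with 25 reads at 3Ws, then Il3ra and Il2rg.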
